A study of Mus musculus with 25 samples.

Results

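Transcripts of 10 plasma carrier proteins that the liver makes in bulk were followed in RNA from mouse sperm. The genes were taken by symbol from the deposited table, namely Alb, Afp, Gc, Ttr, Rbp4, Trf, Hpx, Hp, Ahsg and Ambp. All 10 were among its 24358 genes and had a valid estimate in every condition. Sperm came from the cauda epididymis of 14-week-old males and was sequenced by all-RNA-seq, which depletes ribosomal RNA and treats RNA ends so that RNA classes with different ends can be read. C57.CTL.F1 are C57BL/6J sons of dams given corn oil vehicle, and C57.D300.F1 are C57BL/6J sons of dams given 300 mg/kg/day bis(2-ethylhexyl)phthalate (DEHP, a plasticizer) by mouth from embryonic day 9 to 19. C57.D300.F2 are sons that C57.D300.F1 males sired with unexposed females, and no F2 vehicle group was analysed here. The matching FVB/N first-generation males are FVB.CTL.F1 after vehicle and FVB.D300.F1 after DEHP. The names vehicle and exposed are used from here on for the first-generation conditions of each strain, and the second generation for C57.D300.F2. Each condition had 5 libraries. The labels mark all 10 first-generation C57BL/6J libraries as re-analysed and leave the other 15 unmarked, so that generation, strain and set of libraries cannot be told apart in any comparison that crosses them.

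The table gives 1 estimated fragment count per gene and condition, which Cuffdiff combined from the 5 libraries and scaled between them. It also gives the variance of that count under the Cuffdiff model, whose square root is called the model SD here. With 1 value per condition there is no spread between libraries, and no p-value is given for any difference. In bulk RNA, fewer cells of a type and less RNA per cell cannot be told apart.

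Hepatocytes secrete these proteins into plasma, where they hold ligands that would otherwise be insoluble, lost in urine or harmful. Albumin carries fatty acids, bilirubin and many drugs, while transthyretin and retinol-binding protein travel together with thyroid hormone and retinol. Transferrin, hemopexin and haptoglobin keep iron, heme and free hemoglobin bound. Several of them are acute phase proteins, and transferrin is also made outside the liver, among others by Sertoli cells of the testis, which supply iron to germ cells.

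The albumin family has 4 members, and 3 of them lie side by side on chromosome 5. In GENCODE M21 on GRCm38, Alb spans chr5:90460897-90476602 and Afp spans chr5:90490737-90508907, both on the plus strand, with 14.1 kb between them. Afm is the next gene past Afp. Gc lies on the minus strand at chr5:89417522-89457898, 1003 kb from Alb. The bases just before the RefSeq starts of Alb, Afp and Gc are shown because these related genes shared 1 short word there and yet differed widely in level. Each line gives 150 bases on the gene's own strand from 5′ to 3′, ending at the base before the start, from the RefSeq promoters of GRCm38.p6. Capitals mark GTTAAT, a word within the palindrome recognised by the hepatocyte factor HNF1.
Alb, chr5:90460720-90460869, plus strand: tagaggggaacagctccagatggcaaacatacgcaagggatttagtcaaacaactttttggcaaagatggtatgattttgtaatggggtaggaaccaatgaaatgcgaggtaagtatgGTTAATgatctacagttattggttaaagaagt
Afp, chr5:90490564-90490713, plus strand: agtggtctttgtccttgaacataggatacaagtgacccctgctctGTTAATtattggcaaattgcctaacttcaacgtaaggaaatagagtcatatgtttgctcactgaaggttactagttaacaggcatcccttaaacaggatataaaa
Gc, chr5:89457899-89458048, minus strand: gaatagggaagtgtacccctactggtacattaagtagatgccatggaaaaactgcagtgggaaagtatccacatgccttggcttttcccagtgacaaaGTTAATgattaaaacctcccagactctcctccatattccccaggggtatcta

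The 250 bases before the start were searched on both strands for 5 words. GTTAAT began 32 bases before the start in Alb, 105 bases in Afp and 52 bases in Gc. It occurred in 3 of the 8 entries that matched 7 of the 10 genes, and in 6.43% of all 32851 promoters. CAAAGTC, an HNF4 word, occurred in Alb, Ahsg and Hpx and in 3.84% of all promoters. The forkhead word TGTTTAC occurred in Rbp4 and in 3.17% of all promoters. TATAAA occurred in Afp and Rbp4 and in 12.4% of all promoters. CCAAT was found in 6 of the 8 entries and in 33.8% of all promoters. No match of one word overlapped a match of another. Alb and Afp thus held the same HNF1 word at different distances from their RefSeq starts. For Alb and Afp, but not for Gc, these starts lie upstream of the GENCODE starts given above, so the distances hold for RefSeq only. A match is a description of letters only.

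Albumin transcripts were among the most abundant RNAs of the first-generation C57BL/6J sperm. Alb had 83529 counts in vehicle C57BL/6J and 100464 in exposed C57BL/6J, at rank 3 and rank 2 among all genes from the highest. Its count was 2559 in the second generation, 524 in vehicle FVB/N and 349 in exposed FVB/N. Alb was thus high in the re-analysed conditions, intermediate in the second generation and lowest in FVB/N. Relative to vehicle C57BL/6J, 3.06% of the count was left in the second generation and 0.628% in vehicle FVB/N. From the highest to the lowest level, neighbours differed by less than the model SD of the difference down to the second generation, and by more than it from the second generation to vehicle FVB/N and on to exposed FVB/N.

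Afp encodes alpha-fetoprotein, the fetal counterpart of albumin that is silenced in liver after birth. It had 9.54 counts in vehicle C57BL/6J, 14.2 in exposed C57BL/6J, 13.1 in the second generation, 7.78 in vehicle FVB/N and 14.4 in exposed FVB/N. These values lay within a narrow range above the limit of detection of 3 counts, and no pair of compared conditions differed by more than the model SD. Afp was the only 1 of the 10 genes that was not high in the first-generation C57BL/6J conditions. Its locus is overlapped by the antisense gene Gm43449.

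Gc encodes the vitamin D-binding protein, which also clears actin from plasma. Gc had 15936 counts in vehicle C57BL/6J and 11285 in exposed C57BL/6J, then 310 in the second generation. In FVB/N it had 56.7 counts in the vehicle group and 173 in the DEHP group. Gc was the one gene besides Afp that was higher in exposed FVB/N than in vehicle FVB/N. Afm encodes afamin, a vitamin E carrier, and was added after its values were seen because it completes the cluster. It had 434 counts in vehicle C57BL/6J, 380 in exposed C57BL/6J, 20.6 in the second generation and 4.44 in vehicle FVB/N. In exposed FVB/N Afm was at 1.45, below the limit of detection. Within the albumin family, Alb, Gc and Afm were thus lower outside the re-analysed conditions, while Afp stayed between 7.78 and 14.4 counts in all conditions.

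Ttr, on chromosome 18 (20665280-20674321, plus strand), encodes transthyretin, the carrier of thyroxine that also anchors retinol-binding protein. Ttr had 38822 counts in vehicle C57BL/6J and 17995 in exposed C57BL/6J. It had 394 counts in the second generation, 101 in vehicle FVB/N and 65.0 in exposed FVB/N. Of the 10 genes, Ttr kept the smallest share of its vehicle C57BL/6J count both in the second generation (1.01%) and in vehicle FVB/N (0.260%). Rbp4 (chr19:38116629-38125281, minus strand) encodes the retinol carrier that binds transthyretin. Rbp4 had 2204 counts in vehicle C57BL/6J, 3418 in exposed C57BL/6J, 153 in the second generation, 41.0 in vehicle FVB/N and 28.3 in exposed FVB/N. The partners therefore differed within C57BL/6J first-generation males, where Ttr was lower and Rbp4 higher after DEHP, although neither difference exceeded its model SD.

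Trf (chr9:103204001-103230444, minus strand) encodes transferrin, which delivers ferric iron to cells. Trf had 41712 counts in vehicle C57BL/6J and 37152 in exposed C57BL/6J. It still had 3936 counts in the second generation, 2347 in vehicle FVB/N and 2190 in exposed FVB/N. Transferrin thus kept 9.44% of its vehicle C57BL/6J count in the second generation and 5.63% in vehicle FVB/N, the largest shares among the 9 genes other than Afp. Trf shares its strand and place with the protein-coding gene model Gm20425, which has no row of its own in the table, so its count is uncertain in that respect.

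Hpx (chr7:105591613-105600137, minus strand) encodes hemopexin, the scavenger of free heme. Hpx had 8218 counts in vehicle C57BL/6J, 4667 in exposed C57BL/6J, 179 in the second generation, 42.7 in vehicle FVB/N and 25.2 in exposed FVB/N. Hp (chr8:109575128-109579172, minus strand) encodes haptoglobin, which binds hemoglobin released from red cells. Hp had 5540 counts in vehicle C57BL/6J, 2166 in exposed C57BL/6J, 249.9 in the second generation, 109 in vehicle FVB/N and 94.3 in exposed FVB/N. Hemopexin was the higher of the pair in the first-generation C57BL/6J conditions and haptoglobin in the other 3, also when the counts were divided by exonic length.

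Ahsg (chr16:22891277-22899449, plus strand) encodes fetuin-A, which keeps calcium phosphate in solution. Ahsg had 5042 counts in vehicle C57BL/6J, 5263 in exposed C57BL/6J, 159 in the second generation, 46.3 in vehicle FVB/N and 25.3 in exposed FVB/N. Ambp (chr4:63143275-63154799, minus strand) encodes a precursor that is cut into alpha-1-microglobulin, a heme-binding lipocalin, and bikunin, a protease inhibitor. Ambp had 4143 counts in vehicle C57BL/6J, 2830 in exposed C57BL/6J, 95.0 in the second generation, 16.6 in vehicle FVB/N and 8.09 in exposed FVB/N. Both genes followed the order seen for albumin outside the first-generation C57BL/6J pair. The antisense gene Gm30505 overlaps Ahsg.

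**Figure D1:**
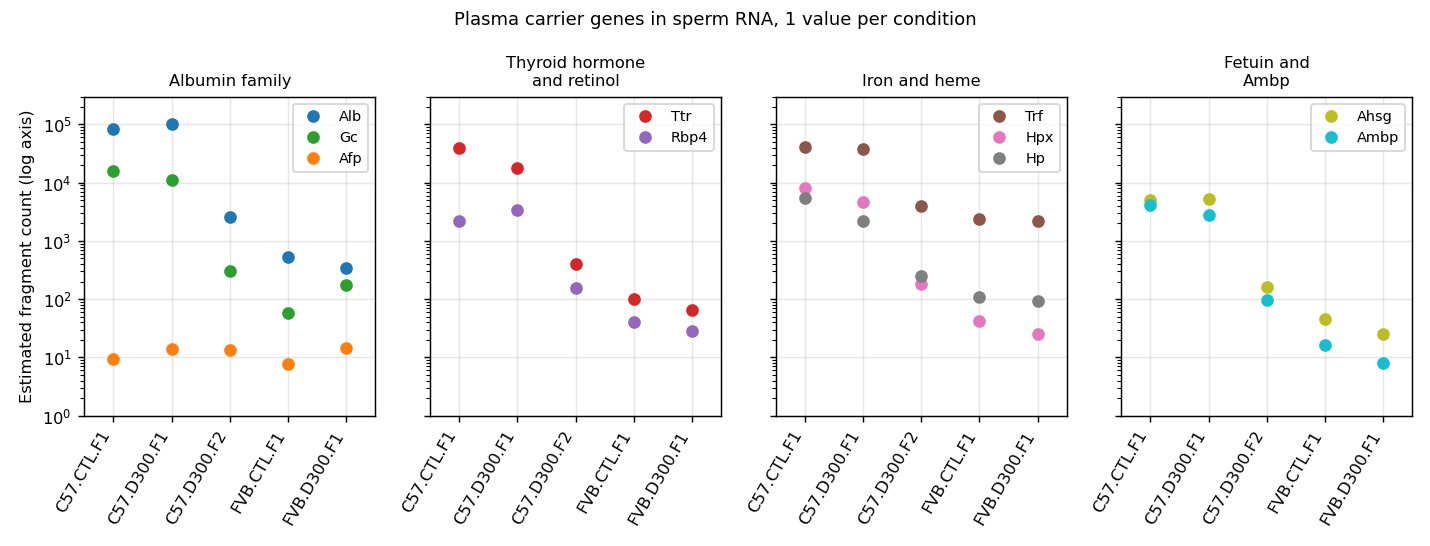
Estimated fragment counts of the 10 genes on a log axis in the 5 conditions, in 4 panels by role. Each point is the single Cuffdiff value of a condition, without error bars. All genes but Afp are highest in vehicle C57BL/6J or exposed C57BL/6J and lower in the other 3 conditions, and Afp stays between 7.78 and 14.4 counts.

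Summed over the 10 genes, the count was 205155 in vehicle C57BL/6J and 185254 in exposed C57BL/6J, or 2.38% and 2.39% of all counts. It was 8048 in the second generation (0.116%), 3292 in vehicle FVB/N (0.0435%) and 2973 in exposed FVB/N (0.0359%). Without Alb, the sum was 121626 in vehicle C57BL/6J and 84790 in exposed C57BL/6J. The make-up of the full sum differed along with its size. Alb gave 40.7% of it in vehicle C57BL/6J and 54.2% in exposed C57BL/6J, against 31.8% in the second generation, 15.9% in vehicle FVB/N and 11.7% in exposed FVB/N. Trf gave 20.3% and 20.1% in the first-generation C57BL/6J conditions. Its share was 48.9% in the second generation, 71.3% in vehicle FVB/N and 73.7% in exposed FVB/N. The ratio of the Trf count to the Alb count was 0.499 in vehicle C57BL/6J, 0.370 in exposed C57BL/6J and 1.54 in the second generation, and it was 4.48 and 6.28 in the vehicle and DEHP groups of FVB/N. Transferrin was therefore the leading carrier transcript wherever the sum was low. The ratios of Ttr to Alb (0.154 to 0.465) and of Ahsg to Alb (0.0524 to 0.0883) stayed within narrower ranges. In the first-generation C57BL/6J conditions the model SD of Alb and of Trf was larger than the count. These shares and ratios are therefore uncertain there.

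Counts per kilobase of exon allow the genes to be ranked against each other. In vehicle C57BL/6J the order on this scale was Alb, Ttr, Trf, Gc, Hpx, Hp, Ambp, Ahsg, Rbp4 and Afp. In vehicle FVB/N it was Trf, Alb, Ttr, Hp, Gc, Rbp4, Hpx, Ahsg, Ambp and Afp. Alb was at 35666 counts per kilobase in vehicle C57BL/6J and Ttr at 32734, close to each other on this scale. For both genes the model SD was larger than the count itself there. The closeness also depends on the length used, as Alb has 2342 exonic bases but 2034 in its longest transcript. Ttr has 1186 by either length. In vehicle FVB/N, Trf stood at 707 counts per kilobase, Alb at 224 and Ttr at 85.0. Afp was last in all 5 conditions.

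**Figure D2:**
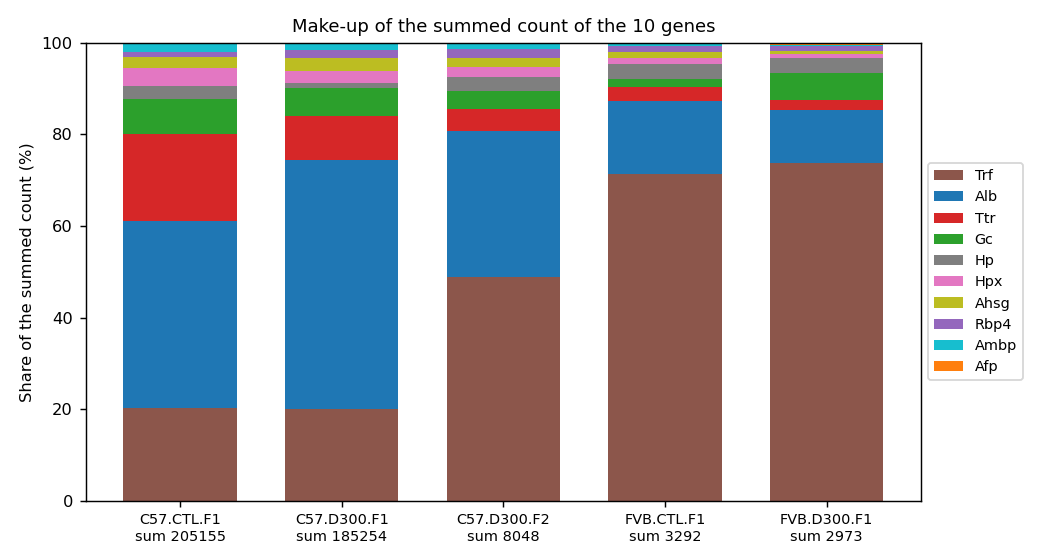
Share in percent of each gene in the summed count of the 10 genes, stacked for the 5 conditions, with the sum under each bar. Trf takes 20.3% of the sum in vehicle C57BL/6J and 73.7% in exposed FVB/N, and Alb 40.7% and 11.7%.

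The first comparison asked whether the levels differed after prenatal DEHP in C57BL/6J. On the log2 scale with 1 added to each count, Alb differed by 0.27, Rbp4 by 0.63, Afp by 0.52 and Ahsg by 0.06, all higher in exposed C57BL/6J than in vehicle C57BL/6J. The values were -1.35 for Hp, -1.11 for Ttr, -0.82 for Hpx, -0.55 for Ambp, -0.50 for Gc and -0.17 for Trf. None of the 10 genes passed 2 log2 units, against 0.0357% of all genes with 10 counts or more that were higher by this much and 0.256% that were lower. The median of the 10 was -0.33 and that of all genes tested -0.01. Hp was the single gene whose difference, -3374 counts, exceeded its model SD (2579 counts), as 3.13% of all genes were lower by more than theirs. At 1 log2 unit, Hp and Ttr were lower, 2 of 10 beside 1.15% of all genes. In vehicle C57BL/6J, but not in exposed C57BL/6J, seminal vesicle transcripts were abundant (8 genes summing to 238142 against 695 counts), and their part in these differences was not tested.

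The same comparison in FVB/N concerned far lower counts. In exposed FVB/N against vehicle FVB/N, 8 of the 10 genes lay below 0 on the log2 scale and the median was -0.55, beside 0.00 for all genes tested. The values were -0.95 for Ambp, -0.85 for Ahsg, -0.74 for Hpx, -0.63 for Ttr and -0.59 for Alb. They were -0.52 for Rbp4, -0.21 for Hp and -0.10 for Trf. Afp stood at 0.81 and Gc at 1.60. Both are of the albumin family, but Alb of the same family was lower, as was Afm (-1.15), which was below 10 counts in both conditions. At 1 log2 unit Gc was higher, 1 of 10 beside 2.16% of all genes. None of the 10 passed 2 log2 units, against 0.662% of all genes that were higher and 0.0182% that were lower by this much. The model SD was exceeded by the Alb, Ttr, Hpx and Ambp differences, all lower, and by that of Gc, higher by 117 counts with a model SD of 78.4 counts. Together these are 5 of the 10 genes, where 3.76% of all genes were higher and 1.89% lower by more than the model SD. Markers of other cells and tissues went both ways in the same comparison. Their medians, over genes with 10 counts or more, lay above 0 for the epididymal, blood cell, sperm (0.39), kidney (0.13) and small intestine (0.32) lists. The medians lay below 0 for the seminal vesicle (-0.46), hepatocyte enzyme (-0.38) and Sertoli cell (-0.09) lists. Some rest on few genes, with 2 for kidney, 3 for small intestine, 4 for Sertoli cells and 5 for seminal vesicle. Of 13 epididymal genes with 10 counts or more, 11 were higher by 2 log2 units in exposed FVB/N, with a median of 6.75. Of 8 blood cell genes, 3 were higher by 2 log2 units, namely Hba-a2 (2.43, which shares reads with its near-identical copy Hba-a1), Hbb-bs (2.33) and S100a9 (2.52), named after their values were seen, with a median of 1.21 for the list. On the same list 2 genes lay below 0, S100a8 (-1.18) and Cd74 (-0.19), likewise named after their values were seen. The part of these cells in the carrier values was not tested.

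The DEHP difference was set against strain by subtracting the log2 ratio in C57BL/6J from that in FVB/N. It was 2.09 for Gc, which was lower after DEHP in C57BL/6J and higher in FVB/N, and 0.997% of all genes reached 2 or more. For Gc it was 1.82 with equal totals and 1.96 with a pseudocount of 10, short of 2. It was 1.14 for Hp, -1.15 for Rbp4, -0.91 for Ahsg and -0.85 for Alb. The other 5 genes lay between -0.40 and 0.48. The median of the 10 was 0.07, beside 0.03 for all genes, and it turned to -0.21 with scaling to equal totals. The difference between the strains could not be tested with 1 value per condition.

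The second generation was compared with both first-generation conditions of its strain. Against vehicle C57BL/6J, 9 of the 10 genes were lower by 2 log2 units or more in the second generation, beside 3.61% of all genes. The values reached from -3.41 for Trf and -3.84 for Rbp4 to -5.68 for Gc and -6.62 for Ttr. Alb stood at -5.03, Hpx at -5.51, Ambp at -5.43, Ahsg at -4.98 and Hp at -4.47. The median of the 10 genes was -5.00, and that of all genes tested -0.04. Afp, at 0.42, was the exception. For 6 of the 9 the difference also exceeded the model SD, beside 3.38% of all genes. For Alb, Ttr and Trf it did not, because their model SD in vehicle C57BL/6J was larger than the count itself (for Alb, 343315 counts).

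Against exposed C57BL/6J, their own sires' condition, 9 of the 10 genes were again lower by 2 log2 units or more in the second generation, beside 3.3% of all genes. The median was -4.79 and the values ranged from -3.11 for Hp to -5.51 for Ttr, with Afp at -0.10. The difference exceeded the model SD for 7 of the 9 genes, beside 3.17% of all genes, with Alb and Trf as the exceptions. The sign of the Afp value turned with the scaling, to 0.05 with equal totals and 0.10 with upper quartile factors. Both comparisons use the same second-generation value, and both cross from re-analysed libraries to the others.

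The strains were compared within vehicle and within DEHP. In vehicle FVB/N against vehicle C57BL/6J, all 9 genes with 10 counts or more were lower by 2 log2 units or more, beside 8.88% of all genes. Their median was -7.31, with -8.57 for Ttr, -8.11 for Gc, -7.88 for Ambp, -7.56 for Hpx and -7.31 for Alb. The smallest differences were -4.15 for Trf, -5.65 for Hp and -5.71 for Rbp4. Afp was below 10 counts in both conditions and was left out. The model SD was exceeded as well for 6 of the 9 genes, beside 8.47% of all genes, again without Alb, Ttr and Trf.

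In exposed FVB/N against exposed C57BL/6J, 9 of the 10 genes were lower by 2 log2 units or more, beside 7.67% of all genes. The median was -7.17, or -7.48 without Afp, with extremes of -8.28 for Ambp and -4.08 for Trf. Afp stood at 0.03, and at -0.06 with equal totals. For 7 of the 9 genes the difference exceeded the model SD as well, beside 7.37% of all genes. In the DEHP groups the same 9 genes were thus far lower in FVB/N. Afp, which was left out between the vehicle groups, was level there.

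Vehicle FVB/N and the second generation both come from the libraries that are not marked as re-analysed, although they differ in strain, generation and lineage exposure at once. All 10 genes were lower in vehicle FVB/N, beside a median of -0.0041 for all genes tested. Of the 10, 4 passed 2 log2 units, namely Ambp (-2.45), Gc (-2.43), Alb (-2.29) and Hpx (-2.05), beside 2.5% of all genes. Ttr followed at -1.95, Rbp4 at -1.87, Ahsg at -1.76, Hp at -1.19, Trf at -0.75 and Afp at -0.69. The median of the 10 was -1.91, or -1.95 without Afp. The latter compares with -7.31 between the vehicle groups of both strains, where Afp was left out. At 1 log2 unit, 8 of the 10 were lower, beside 11.6% of all genes. The difference exceeded the model SD for 8 genes, all but Ahsg and Afp, beside 17.1% of all genes that were lower by more than theirs.

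**Figure D3:**
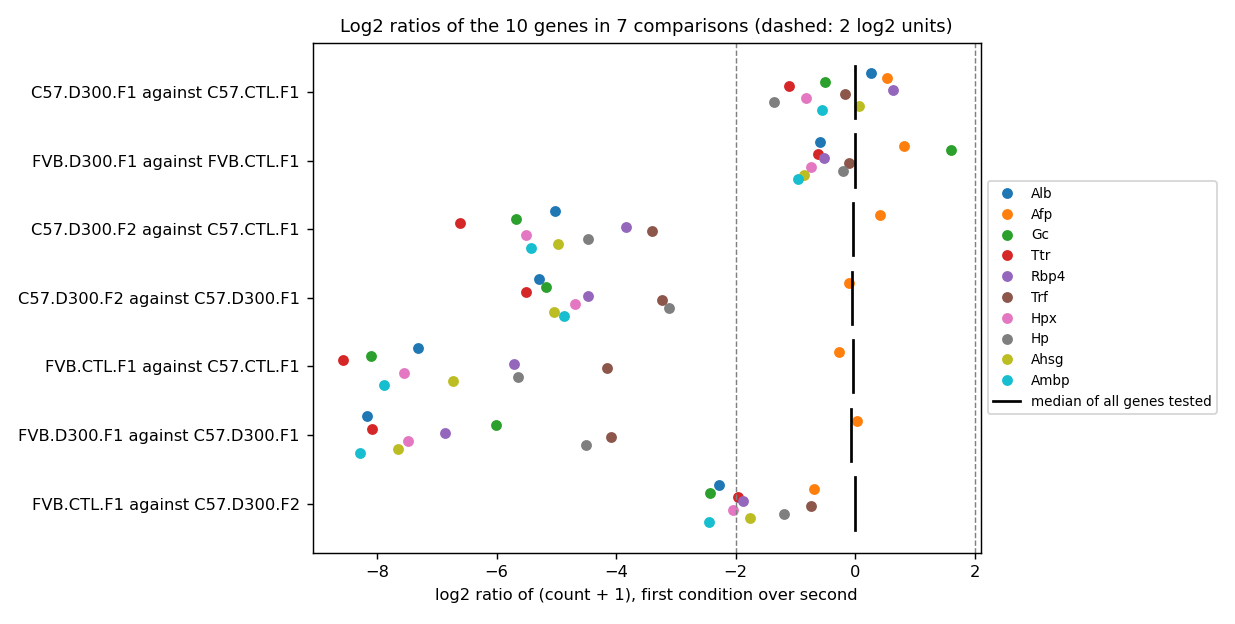
Log2 ratios of the 10 genes in the 7 comparisons, with 1 point per gene, the median of all genes tested as a black line and dashed lines at 2 log2 units. In the 4 comparisons that cross from re-analysed libraries to the others, 9 genes lie at -3.11 or lower and Afp lies between -0.26 and 0.42.

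The variance columns add a second property of the counts. Alb had a model coefficient of variation (CV, the model SD over the count) of 4.11 in vehicle C57BL/6J and 4.42 in exposed C57BL/6J. In vehicle C57BL/6J, the median CV of all genes fell from 0.454 in the bin centred on 13.3 counts to 0.236 at 422 counts. Above that it rose, to 0.679 in the highest bin with 20 genes or more, centred on 23714 counts. Too few genes had counts as high as Alb for a median at its own level. The CV of Alb was 0.481 in the second generation, 0.257 in vehicle FVB/N and 0.292 in exposed FVB/N, 1.09 to 1.64 times the median CV of the 200 genes nearest in count. Albumin was therefore estimated with a far wider model spread where it was high. Trf and Ttr had CVs of 1.31 and 1.45 in vehicle C57BL/6J, also at counts above that bin.

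Ahsg showed another pattern. Its CV was 0.601 in vehicle C57BL/6J and 0.661 in exposed C57BL/6J, and 0.924, 1.24 and 1.62 in the second generation, vehicle FVB/N and exposed FVB/N. In the last 3 conditions this was 3.74 to 4.36 times the median of genes with like counts, whereas the other 9 genes lay between 0.985 and 1.78 times there. The highest of those 9 were Gc in exposed FVB/N (1.78 times, CV 0.439) and Alb in the second generation (1.64 times). The Gc count that was higher after DEHP in FVB/N was thus also one with a wider model spread than its count would give. The sources used here do not say how the 5 libraries enter the model variance.

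**Figure D4:**
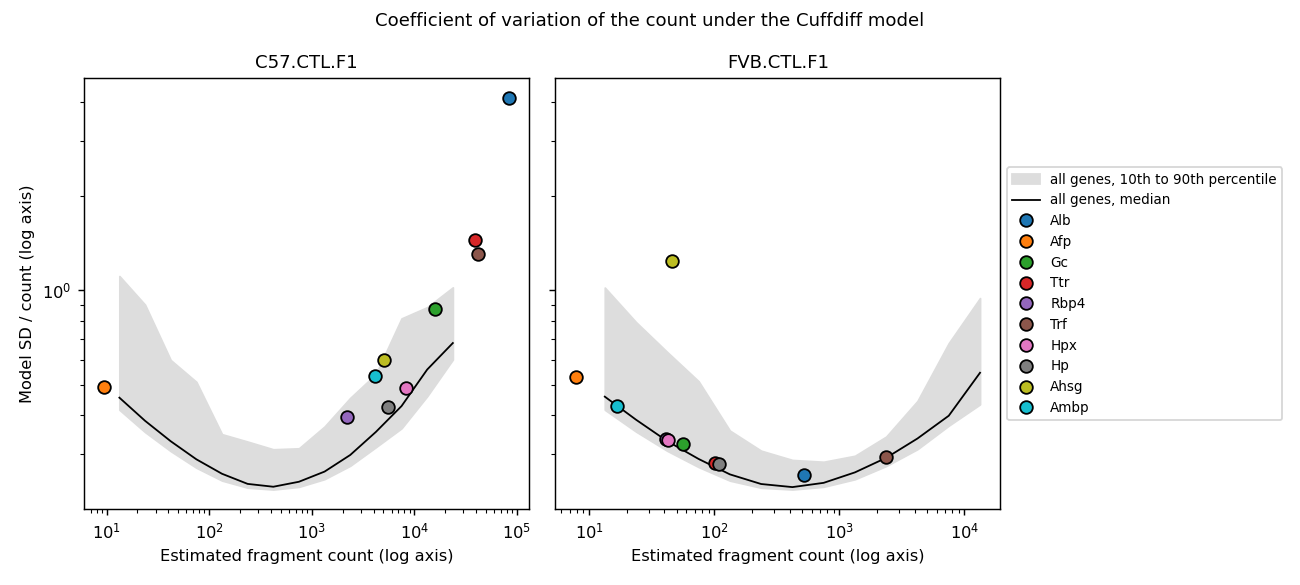
Model CV against the estimated count, both on log axes, in vehicle C57BL/6J and vehicle FVB/N. Points are the 10 genes, the line is the median of all genes in bins of count and the grey band their 10th to 90th percentiles, drawn for bins with 20 genes or more. Alb (4.11), Ttr (1.45) and Trf (1.31) are above 1 in vehicle C57BL/6J, and Ahsg (1.24) alone is above 1 in vehicle FVB/N.

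The profiles of 11238 genes with at least 100 counts in their highest condition were compared with that of Alb, as the root mean square distance between centred log2 values over the 5 conditions. Among the nearest genes outside the carriers were Mug1 (distance 0.14), Cps1 (0.20), Apoc3, Itih1, Hpd, Apob, Pon1, Cyp2c29 and Apoa1 (0.28). They encode secreted plasma proteins, apolipoproteins and hepatocyte enzymes. Of the carriers, Ahsg was the nearest, at rank 10, followed by Ambp (21), Hpx (27), Ttr (72), Rbp4 (96), Gc (122), Hp (197) and Trf (269). Apob, the protein of low-density lipoprotein, had 35205 counts in vehicle C57BL/6J and 264 in vehicle FVB/N.

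Other plasma carriers were counted from a list of 15 genes, of which 14 had 10 counts or more in the comparison of the second generation with vehicle C57BL/6J. In it 12 of the 14 were lower by 2 log2 units or more, beside 3.61% of all genes, with a median of -4.24. In vehicle FVB/N against vehicle C57BL/6J, 11 of 14 were, beside 8.88% of all genes, with a median of -5.67. The medians after DEHP were -0.23 in C57BL/6J and -0.27 in FVB/N. By the same threshold 1 of 14 and 0 of 9 genes were lower, beside 0.256% and 0.0182% of all genes. The 1 gene was Orm2, an acute phase lipocalin named after its values were seen, with 119.5 counts in vehicle C57BL/6J and 14.2 in exposed C57BL/6J. Vtn, the adhesion protein vitronectin, had 4075 counts in vehicle C57BL/6J, 126 in the second generation and 29.4 in vehicle FVB/N. Apoh, a phospholipid-binding protein, had 4501, 93.2 and 22.8 counts in the same order. Sepp1, the selenium carrier, had 12435 counts in vehicle C57BL/6J, 2676 in the second generation and 1561 in vehicle FVB/N. Cp, the copper ferroxidase ceruloplasmin that loads iron onto transferrin, had 12750, 4934 and 5582 counts and did not pass 2 log2 units. Tcn2, the vitamin B12 carrier, chosen after its values were seen, stood at 504, 493 and 639.5 counts.

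Receptors and uptake proteins for the carriers and their ligands formed a list of 18 genes. In the second generation against vehicle C57BL/6J, 5 of 17 were lower by 2 log2 units or more, beside 3.61% of all genes, with a median of -0.29. In vehicle FVB/N against vehicle C57BL/6J 5 of 17 were also lower, beside 8.88% of all genes, with a median of -0.75. Named after their values were seen, these were Tfr2, Asgr1, Asgr2, Stra6l and Slc40a1 in both comparisons. Tfr2, Asgr1 and Asgr2 are receptors of hepatocytes for iron-loaded transferrin and for desialylated glycoproteins, and Slc40a1 is the iron exporter ferroportin. None of the list passed the threshold after DEHP in either strain. Lrp2, the endocytic receptor megalin, had 10385 counts in vehicle C57BL/6J, 14973 in the second generation and 19806 in vehicle FVB/N. Lrp1, the receptor that clears heme-hemopexin, had 9273, 10646 and 6651 counts. The ferritin chains Fth1 and Ftl1 had 14738 and 14893 counts in vehicle C57BL/6J and 8780 and 5139 in vehicle FVB/N.

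Marker lists were measured beside the carriers. The list called hepatocyte enzymes here holds 18 genes whose products are not secreted. Of these, Fabp1 and Ttc36 do not encode enzymes, and Fabp1 had 11513 counts in vehicle C57BL/6J. The list summed to 89965 counts in vehicle C57BL/6J and 72490 in exposed C57BL/6J. It summed to 2144 in the second generation, 775 in vehicle FVB/N and 624 in exposed FVB/N. All 18 were lower by 2 log2 units or more in the second generation and in vehicle FVB/N against vehicle C57BL/6J, with medians of -5.34 and -7.09. Of all genes, 3.61% and 8.88% were lower by this much. The carrier sum was 2.28 times the enzyme sum in vehicle C57BL/6J, 3.75 times in the second generation and 4.25 times in vehicle FVB/N. Carriers and hepatocyte enzymes were thus high and low in the same conditions, and the part of liver RNA in the carrier values was not tested.

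Sperm markers were present in every condition and, other than after DEHP in FVB/N (median 0.39), their median had the same sign as that of the carriers in each comparison. The 11 genes of sperm and late germ cells, protamines among them, summed to 95642 counts in vehicle C57BL/6J, 81039 in exposed C57BL/6J, 32699 in the second generation, 7653 in vehicle FVB/N and 9198 in exposed FVB/N. None of them passed 2 log2 units in the second generation against vehicle C57BL/6J (median -1.05), and all 11 did in vehicle FVB/N against vehicle C57BL/6J (median -3.50). Of all genes, 3.61% and 8.88% were lower by this much. The carrier sum was 2.15 times the sperm sum in vehicle C57BL/6J, 0.246 times in the second generation and 0.430 times in vehicle FVB/N. Between vehicle FVB/N and the second generation the sperm median was -2.07 and the carrier median -1.91, so that both lists differed by a like amount there. The part of sperm content in the carrier values was not tested.

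The markers of other cells and tissues are given by their sums. The 10 Sertoli cell genes summed to 228 to 428 counts over the 5 conditions. The highest of them were Wt1 at 76.8 to 232 counts and Sox9 at 75.4 to 105. Amh (2.49 to 5.23 counts) and Rhox5 (0.477 to 2.21), named after their values were seen, were far lower. The 9 blood cell genes found in the table summed to 8124 counts in vehicle C57BL/6J, 10861 in exposed C57BL/6J, 7437 in the second generation, 3321 in vehicle FVB/N and 7558 in exposed FVB/N. The 6 kidney genes summed to 33.0 to 121 counts. The 6 small intestine genes summed to 405 counts in vehicle C57BL/6J and to 65.2 to 173 in the other conditions. Against vehicle C57BL/6J, 2 of 5 (Fabp2 and Apoa4) were lower by 2 log2 units or more in the second generation and in vehicle FVB/N. Of all genes, 3.61% and 8.88% were lower by this much. Of the 14 epididymal genes, Adam7 had 23918 to 37310 counts outside exposed FVB/N and 53922 within it. Crisp1 had 108274 counts in vehicle C57BL/6J and 219328 in exposed FVB/N, and its estimate failed in the other 3 conditions. Seminal vesicle genes summed to 238142 counts in vehicle C57BL/6J and to 695 to 2137 in the other 4 conditions. Of these lists, the blood cell, intestinal and seminal vesicle genes had their highest sums in a first-generation C57BL/6J condition, as the carriers did.

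**Figure D5:**
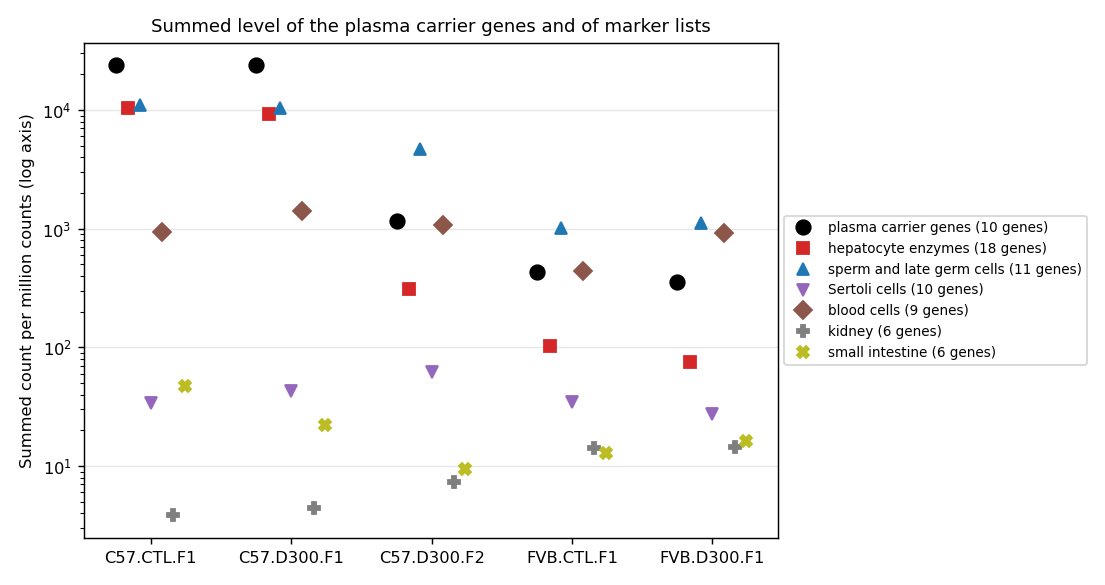
Summed counts as CPM, scaled to the total of each condition, on a log axis for the 10 carrier genes and 6 marker lists in the 5 conditions, with 1 point per list and condition. The carriers go from 23847 in vehicle C57BL/6J to 435 in vehicle FVB/N, the hepatocyte enzymes from 10457 to 102 and the sperm genes from 11117 to 1011.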

How the data were processed

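The counts are a signal that the authors deposited: 1 estimated fragment count and 1 model variance per gene and condition. Per the study's methods, the RA3 adapter was clipped, reads of at least 18 bases were mapped to mm10 with TopHat, and Cuffdiff gave the estimates. The submitters' notes also name Cufflinks and CASAVA 1.8.2. The versions of TopHat and Cuffdiff and the strand setting of Cuffdiff are not given in the sources used here, so reads of antisense genes may be included. Counts summed to 6921688 to 8602900 per condition, and 15883 to 16612 genes had at least 10. Estimates failed for 35 to 50 genes per condition and were treated as missing, Crisp1 among them.

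In this work, log2 ratios used counts with 1 added, for genes that reached 10 counts in either condition, and a threshold of 2 log2 units. A difference was also set against the model SD, which covers the model's error only. Values at or below 3 counts were taken as undetected, which covers counting error only. No test, SD between libraries or p-value could be computed from 1 value per condition. The ratio step was tested on simulated data with counting error only and planted changes above the threshold. Because these data held no further spread, the check says nothing about calls at the model SDs seen here. Alternatives were 3 scalings, pseudocounts of 0.1 and 10, minimum counts of 100 and none, values under 3 counts set to 3, a threshold of 1 log2 unit, the model SD, the sum without Alb or over a total without the 10 highest genes, and the longest transcript as length. Gene coordinates and exonic lengths are those of GENCODE M21 on GRCm38, and promoters those of RefSeq on GRCm38.p6, which matched 7 of the 10 genes. Python 3.11.15, numpy 2.4.6, pandas 2.3.3 and matplotlib 3.10.9 were used. All 10 genes were named, as were up to 4 genes per list with the highest mean count and those of the 10 nearest to Alb that are reported here. The members and lists were chosen with earlier results of these data known. 10 columns were used. Selenop is listed as Sepp1, and Hbb-bt was not matched.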

Additional observations from a re-analysis of the deposited data

How the results depend on the processing

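No paired analysis was possible because the table holds 1 value per condition, which combines the 5 libraries. For the same reason no library could be left out in turn, and neither this nor a replicate block was run. The sums, medians and counts that moved are these. With a pseudocount of 10, the genes lower in vehicle FVB/N than in the second generation numbered 2 in place of 4. With a threshold of 1 log2 unit they numbered 8, and 2 genes (Hp and Ttr) were then lower in exposed C57BL/6J than in vehicle C57BL/6J and 1 (Gc) higher in exposed FVB/N than in vehicle FVB/N, in place of 0. Without Alb, the sum in CPM was 14138 in vehicle C57BL/6J, 10942 in exposed C57BL/6J and 793 in the second generation. Scaling to equal totals moved the median of all genes by up to 0.32 and upper quartile factors by up to 0.28 log2 units. Under these the sign turned only for Afp in 2 comparisons and, with equal totals, for the differences between strains of Trf (-0.21), of Hpx (-0.20) and of the median. The values of single genes for that difference were added after seeing the data. Requiring the model SD as well left 6 or 7 of the 9 genes in the comparisons across sets of libraries. With the longest transcript as length, 216 of 225 gene pairs kept their order. The other 208 sums, medians and counts and 618 values of single genes moved by less than 0.5 log2 units or 1.5 times. The 2 single-gene exceptions are the Ambp values between the strains at a pseudocount of 10, -7.29 in the vehicle groups and -7.30 in the DEHP groups. The counts per gene in FVB/N, from 7.78 to 524 apart from Trf, limit what could be seen there.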
